A study of Mus musculus with 12 samples.

Results

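The genes described here are those of the cytosolic ribosomal proteins, read in mouse progenitor B cells that carried or lacked the transcription factor gene Sox4. They were taken by symbol (Rpl or Rps and a digit, Rplp0, Rplp1, Rplp2 and Rpsa, without kinases, binding proteins and pseudogenes), which gave 63 genes on the array. Of these, 59 had a probe with a detection p-value under 0.05 on at least 3 of the 12 arrays and are the members, out of 19057 genes on the array, 36 of the large and 23 of the small ribosomal subunit. The brightest kept probe stood for each gene. Rpl17, Rpl39l, Rps23 and Rps23rg1 did not pass, Rps23 with detection on 2 arrays at most, and 5 members were detected on fewer than 12 arrays (Rpl14 on 9, Rpl3l on 10, Rpl6 on 4, Rps20 on 11 and Rpsa on 5).

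The cells were progenitor B cells of C57BL/6 embryonic fetal liver, and 3 single-colour Illumina bead arrays were run for each of 4 groups. In the loss-of-function experiment, cells of genotype Sox4fl/fl SE-Cre (called SE-Cre cells below), which carry the floxed Sox4 allele and Cre, were set against Sox4fl/fl cells without Cre. In the gain-of-function experiment, Sox4fl/fl SE-Cre HA-Sox4 cells (HA-Sox4 cells) were set against Sox4fl/fl SE-Cre HA cells (HA cells). All cells of the gain experiment carry the floxed allele and SE-Cre and were immortalized with p190 Bcr-Abl, a leukaemia oncogene. The labels give no age of the embryos and do not say which promoter drives the Cre. They do not say whether replicates came from separate animals or cultures, or whether one immortalized culture gave rise to both HA and HA-Sox4 cells. The p-values thus measure how far these samples spread, and that spread may be technical. No group carried SE-Cre without a floxed Sox4 allele.

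Ribosomal proteins are made in near-equal amounts and assemble with ribosomal RNA in the nucleolus, so their genes are among the most steadily and most strongly transcribed of a growing cell. In mammals their mRNAs begin with a run of pyrimidines, the TOP tract, through which the kinase mTOR controls their translation. Unassembled Rpl5 and Rpl11 bind Mdm2 and so raise p53, and inherited loss of 1 copy of several members impairs blood formation in humans. Rpl5 and Rpl11 themselves are not among the 63 genes taken by symbol, so neither was read here.

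Most members did not pass the test in either experiment. On loss, 6 of 59 members were called at an adjusted p of 0.05 (10.2%), 1 higher and 5 lower in SE-Cre cells, against 19.3% of the 19663 probes tested. On gain, 9 were called (15.3%), 1 higher and 8 lower in HA-Sox4 cells, against 27.9% of probes. The count on gain depended on the processing: it was 5 without HA-Sox4 replicate 2 (8.47%, against 21.9% of probes) and 24 with the authors' processed values (40.7%, against 41.6%). With a trended robust variance the members' share on gain was above that of the probes (32.2%, against 30.5%). It was above in both experiments with no detection filter (10.2% against 7.84% on loss, 16.9% against 11.3% on gain). The median log2 difference of the members was -0.01 on loss and -0.12 on gain, beside medians of 0.02 and -0.05 over all probes tested. Requiring also a difference of at least 1.5-fold left 3 members on loss and 3 on gain, beside 12.3% and 18% of probes. Rpl6 is in each 3 by a fitted value taken against background. It passed the detection filter only through Sox4fl/fl and HA arrays, the groups where it was higher, so its calls are not independent of that filter. The calls at an adjusted p of 0.05 covered 12 genes, 3 of them in both experiments (Rpl3l, Rpl6 and Rps15), and the other 47 members were called in neither. The matching shares of all probes are not given, so these overlap counts only describe the members. All tests were limma's moderated test in 1 fit of the 4 groups, with Benjamini-Hochberg adjustment over all 19663 probes.

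For the members not called, the intervals cover the spread between arrays of the brightest probe and not how well that probe follows its gene. On loss, the 95% interval of the difference lay within 1.5-fold for 50 of the 53 members not called and within 2-fold for 51. On gain, it lay within 1.5-fold for 45 of 50 and within 2-fold for 48. The 3 arrays of one group lay wholly above or below those of the other for 10 members on loss and 30 on gain, beside 29.3% and 49.7% of all probes.

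**Figure D1:**
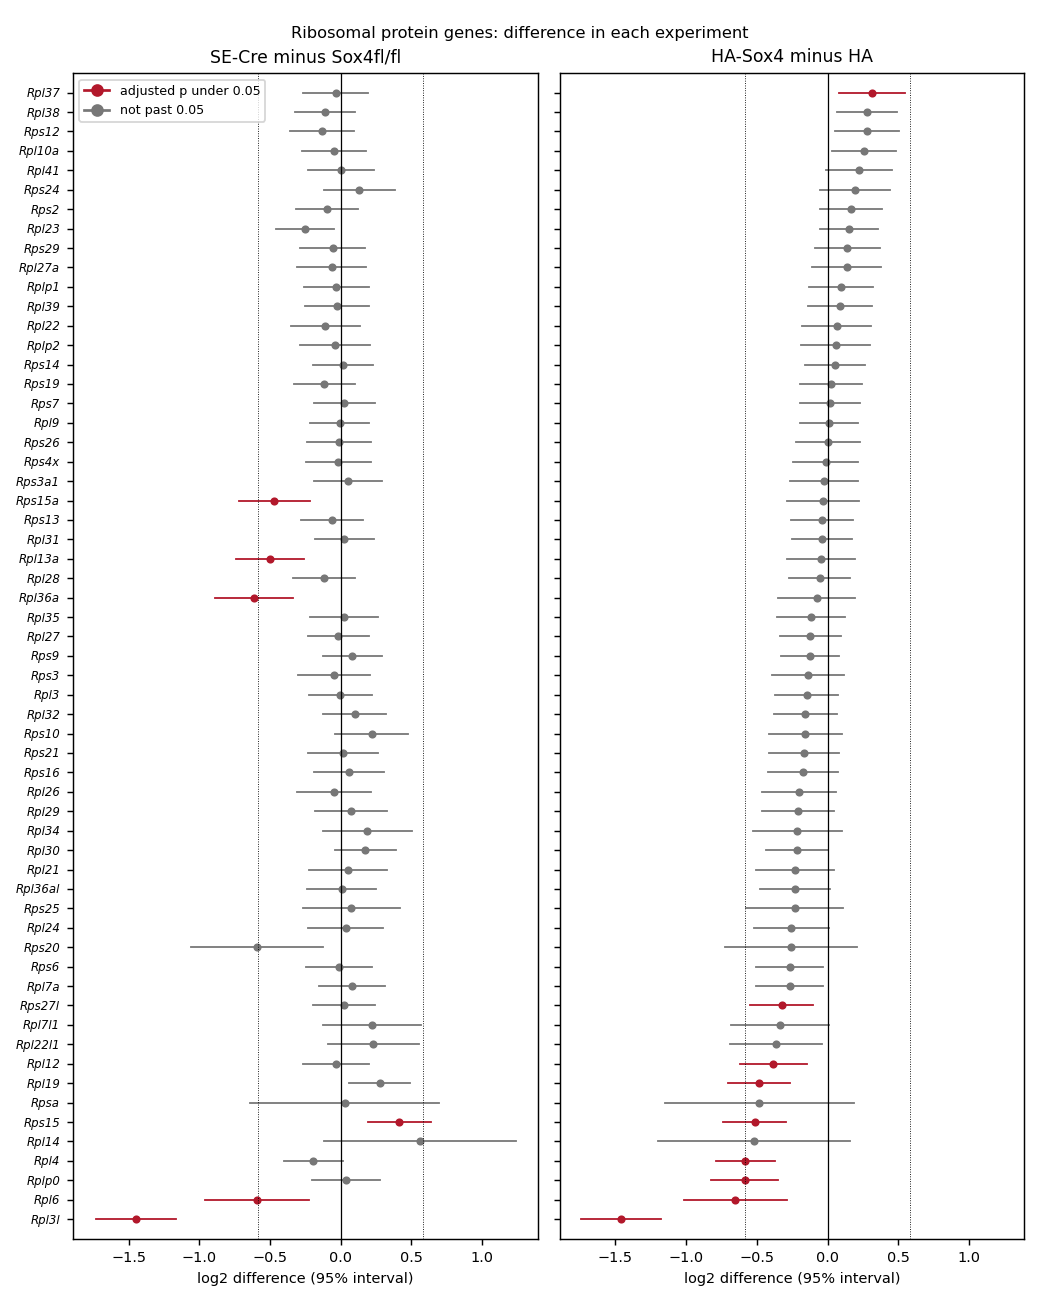
Log2 difference (x axis) of each of the 59 ribosomal protein genes (y axis, ordered by the gain difference) in SE-Cre minus Sox4fl/fl cells (left) and HA-Sox4 minus HA cells (right), with 95% intervals; red marks an adjusted p under 0.05 and dotted lines mark 1.5-fold. Rpl3l stands apart in both panels at -1.45 and -1.46, and most other intervals lie between the dotted lines.

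The promoters of the 12 called members are shown because the mRNAs of these genes are defined by their starts. Each window below runs from 40 bases before to 30 bases after the annotated start of transcription, on the strand of the gene, from RefSeq on GRCm38.p6. Capitals mark CTTTC or CTTTT on the written strand, which are short pyrimidine runs of the kind a TOP mRNA starts with, and CCGGAA on either strand (TTCCGG where it is on the other), the core that ETS-family factors bind. CTTTC and CTTTT cannot share more than an end base, and in Rpl4 they stand side by side. The 3 motifs were chosen after the windows were seen. The windows lie at chr9:64173347-64173416 for Rpl4, chr2:32961672-32961741 for Rpl12, chr10:80292391-80292460 for Rps15, chr5:121204461-121204530 for Rpl6 and chr15:5116573-5116642 for Rpl37 on the plus strand. Also on the plus strand are chrX:134585614-134585683 for Rpl36a, chr5:115559427-115559496 for Rplp0, and, as the first of 2 entries of each gene, chr17:24727786-24727855 for Rpl3l, chr11:98026670-98026739 for Rpl19 and chr9:66946046-66946115 for Rps27l. Those of Rps15a, chr7:118116118-118116187, and Rpl13a, chr7:45128716-45128785, are on the minus strand.
Rpl4: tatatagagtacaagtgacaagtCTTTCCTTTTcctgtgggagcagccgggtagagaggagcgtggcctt
Rpl12: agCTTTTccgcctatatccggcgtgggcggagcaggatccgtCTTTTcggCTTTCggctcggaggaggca
Rps15a: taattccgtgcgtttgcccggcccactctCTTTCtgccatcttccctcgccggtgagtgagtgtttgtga
Rpl13a: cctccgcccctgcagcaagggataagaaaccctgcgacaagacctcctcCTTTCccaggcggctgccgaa
Rpl6: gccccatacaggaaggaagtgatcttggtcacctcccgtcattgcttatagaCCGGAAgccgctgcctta
Rpl37: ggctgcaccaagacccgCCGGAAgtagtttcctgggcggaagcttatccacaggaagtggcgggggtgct
Rpl19: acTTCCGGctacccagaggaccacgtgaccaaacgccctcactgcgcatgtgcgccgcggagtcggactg
Rps27l: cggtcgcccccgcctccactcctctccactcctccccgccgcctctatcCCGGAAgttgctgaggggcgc
Rpl36a: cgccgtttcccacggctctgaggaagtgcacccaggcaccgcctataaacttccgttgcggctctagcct
Rplp0: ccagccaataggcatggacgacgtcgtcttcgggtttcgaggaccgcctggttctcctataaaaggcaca
Rps15: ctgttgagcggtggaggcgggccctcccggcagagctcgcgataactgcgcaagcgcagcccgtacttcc
Rpl3l: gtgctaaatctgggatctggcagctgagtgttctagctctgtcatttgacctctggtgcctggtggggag
The windows of Rpl4 and Rpl12, called lower in HA-Sox4 cells, and of Rps15a and Rpl13a, called lower in SE-Cre cells, hold pyrimidine runs. Those of Rpl6, called lower in both, Rps27l and Rpl19, called lower in HA-Sox4 cells, and Rpl37, called higher in HA-Sox4 cells, hold CCGGAA or its reverse complement. No such capitals fall in the windows of Rps15, Rpl3l, Rpl36a and Rplp0, though Rplp0 holds CTTTT on the opposite strand. Over the 60 entries that matched 50 of the 59 members, CTTTC lay within 50 bases of the start on the written strand in 45%, against 12.8% of all 32851 entries of the table, and on the opposite strand in 11.7% against 12.1%. CTTTT was on the written strand in 21.7% against 11.1%, and on the opposite strand in 5% against 10.9%. CCGGAA was on the written strand in 20% against 4.19% and on the opposite strand in 11.7% against 4.6%. These matches describe the letters of the windows and say nothing about what binds there.

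Rpl3l moved most among the members in both experiments. It is the striated-muscle paralog of Rpl3, which sits at the peptidyl transferase centre of the large subunit. Its log2 normalized intensity was 6.51, 6.73 and 6.85 on the SE-Cre arrays, against 8.18, 7.92 and 8.34 on the Sox4fl/fl arrays. On the HA-Sox4 arrays it was 4.83, 4.89 and 4.75, against 6.22, 6.38 and 6.26 on the HA arrays. Neither pair of groups overlapped, and HA-Sox4 cells had the lowest values of the 4 groups, with detection on 1 of 3 arrays, so the size of its fall on gain depends on the background. The fitted log2 difference was -1.45 (SE 0.13, adjusted p = 4.13e-06, limma) on loss and -1.46 (SE 0.13, adjusted p = 1.95e-06) on gain. By their labels SE-Cre cells lost Sox4 and HA-Sox4 cells gained it, and Rpl3l was lower in both. Rpl3 itself did not pass in either, with differences of 0.00 (95% interval -0.22 to 0.22) on loss and -0.15 (-0.37 to 0.07) on gain.

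Among large-subunit genes, the calls on loss beside Rpl3l were Rpl36a, Rpl13a and Rpl6, all lower in SE-Cre cells. Rpl36a, whose yeast counterpart lies at the exit site for transfer RNA, had 12.93, 12.66 and 12.44 in SE-Cre cells, against 13.39, 13.29 and 13.18 in Sox4fl/fl cells. The groups did not overlap, and the difference was -0.61 (SE 0.13, adjusted p = 0.00415). Its paralog Rpl36al had 13.56, 13.49 and 13.34 in SE-Cre cells, against 13.49, 13.28 and 13.60 in Sox4fl/fl cells, with overlap and a difference of 0.01 (interval -0.24 to 0.25). Rpl13a, which in humans is released from the ribosome to silence inflammatory mRNAs, had 9.94, 9.90 and 10.06 in SE-Cre cells, against 10.43, 10.49 and 10.48 in Sox4fl/fl cells. Those groups were apart too, and the difference was -0.50 (SE 0.11, adjusted p = 0.00678). Rpl6 had 4.36, 4.39 and 4.54 in SE-Cre cells, where it was detected on no array, against 4.96, 5.35 and 4.76 in Sox4fl/fl cells, where it was detected on 2 of 3. Its signal was therefore at least 1.04-fold lower in SE-Cre cells (adjusted p = 0.0267), a bound taken against the lowest detected signal of each SE-Cre array. The detection filter kept Rpl6 only through Sox4fl/fl and HA arrays, where it was higher, so this call is not independent of the filter. Leaving out Sox4fl/fl replicate 2 (adjusted p = 0.1), SE-Cre replicate 1 (0.0692) or SE-Cre replicate 2 (0.0627) ended the Rpl6 call.

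In the small subunit 1 gene rose and 1 fell on loss. The share called on loss was 8.7% of small-subunit and 11.1% of large-subunit members, against 19.3% of all probes. Rps15, of the head of the small subunit, had 12.96, 13.02 and 13.21 in SE-Cre cells, against 12.64, 12.66 and 12.66 in Sox4fl/fl cells. It was the only member called higher in SE-Cre cells in the main fit, with every SE-Cre array above every Sox4fl/fl array (difference 0.41, SE 0.10, adjusted p = 0.0131). Rps15a, a different protein in spite of its name, had 7.01, 7.02 and 7.17 in SE-Cre cells, against 7.32, 7.59 and 7.70 in Sox4fl/fl cells. Its groups did not overlap (difference -0.47, SE 0.12, adjusted p = 0.0134), but without Sox4fl/fl replicate 3 the adjusted p was 0.0501. Rps15 and Rps15a were no longer called when the loss arrays were fitted on their own (adjusted p = 0.0995 and 0.0942), and neither was Rpl6 (0.0723). Scaling to a common median ended the Rps15 call too (0.126).

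**Figure D2:**
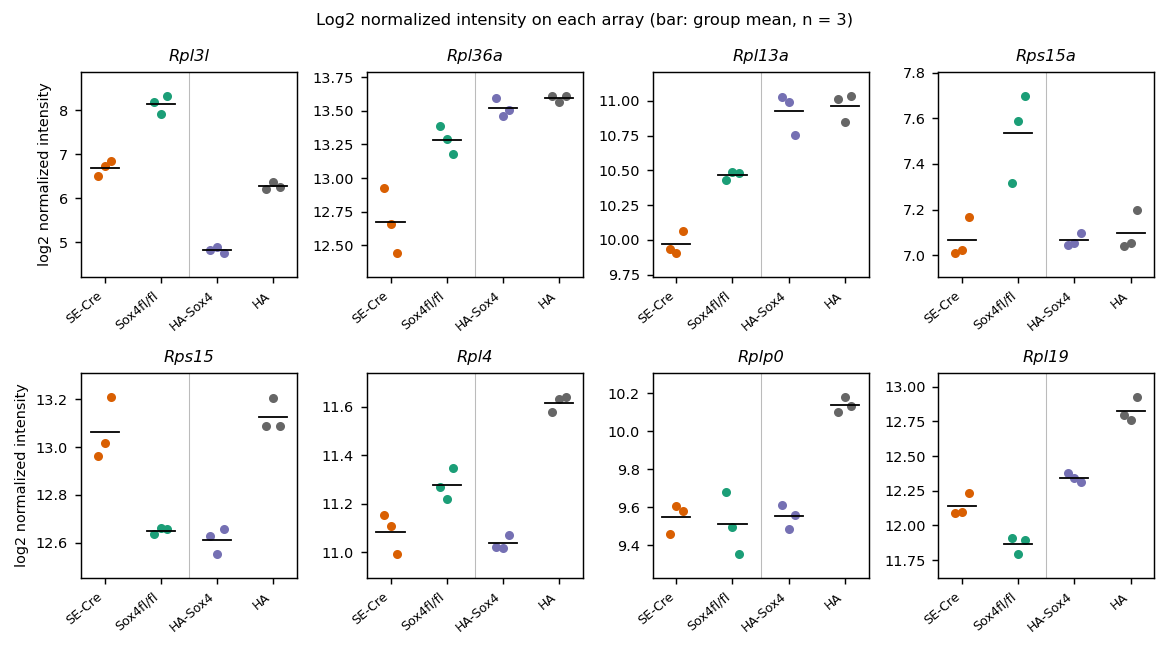
Log2 normalized intensity (y axis, a scale of its own in each panel) of 8 called members on each of the 12 arrays, 3 per group (x axis), with the group mean as a bar; the grey line parts the loss experiment from the gain experiment. Rpl3l is lower in SE-Cre than Sox4fl/fl cells and lower in HA-Sox4 than HA cells, and Rps15 is higher in SE-Cre cells but lower in HA-Sox4 cells.

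On gain, 6 of the 8 members called lower in HA-Sox4 cells were large-subunit genes, as are 36 of the 59 members. Of large-subunit genes 19.4% were called in either direction, and of small-subunit genes 8.7%, against 27.9% of all probes. Rplp0, the base protein of the stalk that recruits translation factors, had 9.61, 9.49 and 9.56 in HA-Sox4 cells, against 10.10, 10.18 and 10.13 in HA cells (difference -0.59, SE 0.11, adjusted p = 0.00133). Rplp1 and Rplp2, the stalk proteins it carries, did not pass, with differences of 0.09 (interval -0.13 to 0.32) and 0.06 (-0.19 to 0.30). Of the stalk genes, then, 1 of 3 was called, beside 27.9% of all probes. Rpl12, which joins the ribosome beside the stalk, had 13.83, 13.86 and 13.92 in HA-Sox4 cells, against 14.20, 14.18 and 14.37 in HA cells. All HA-Sox4 arrays lay below all HA arrays (difference -0.38, SE 0.11, adjusted p = 0.0183), and the call was lost without HA replicate 3 (0.0724), HA-Sox4 replicate 1 (0.0619) or HA-Sox4 replicate 2 (0.0527).

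Rpl4, whose extension lines the exit tunnel of the nascent chain, had 11.02, 11.02 and 11.07 in HA-Sox4 cells, against 11.58, 11.63 and 11.64 in HA cells. The arrays of each group were close together, and the difference was -0.58 (SE 0.10, adjusted p = 0.000562). Rpl19, which forms a bridge between the subunits, had 12.38, 12.34 and 12.31 in HA-Sox4 cells, against 12.79, 12.76 and 12.93 in HA cells (difference -0.48, SE 0.10, adjusted p = 0.00278). On loss every SE-Cre array of Rpl19 lay above every Sox4fl/fl array, but it was not called (difference 0.27, adjusted p = 0.0766). It was called higher in SE-Cre cells under 5 alternatives. Rpl6 had 4.49, 4.34 and 4.60 in HA-Sox4 cells, where it was detected on no array, against 5.03, 5.45 and 4.91 in HA cells, where it was detected on 2 of 3. It was at least 1.21-fold lower in HA-Sox4 cells (adjusted p = 0.0112), a call lost without HA replicate 2 (0.0569) or HA-Sox4 replicate 2 (0.0526). As on loss, the filter kept Rpl6 only through the groups where it was higher.

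In the small subunit, Rps15 and Rps27l were lower in HA-Sox4 cells. Rps15 had 12.63, 12.55 and 12.66 in HA-Sox4 cells, against 13.09, 13.21 and 13.09 in HA cells (difference -0.51, SE 0.10, adjusted p = 0.00214). With its rise in SE-Cre cells, Rps15 was thus lower in the group labelled as having Sox4 in both experiments. Rps27l, a p53-induced paralog of Rps27, had 13.52 on each HA-Sox4 array to 2 decimals, against 13.75, 13.84 and 13.94 on the HA arrays (difference -0.32, SE 0.10, adjusted p = 0.0324). Rpl37, a zinc-finger protein of the large subunit, was the called member that was higher, with 14.30, 14.38 and 14.40 in HA-Sox4 cells, against 14.15, 13.999 and 13.98 in HA cells (difference 0.32, SE 0.11, adjusted p = 0.0427). Both calls were borderline: leaving out HA replicate 2 or 3, or any HA-Sox4 array, ended each of them (adjusted p between 0.0665 and 0.121), and so did leaving out Sox4fl/fl replicate 2 for Rpl37 (0.0569).

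Whether the difference between cells labelled as having and as lacking Sox4 was unlike in the 2 experiments was tested as HA-Sox4 minus HA, less Sox4fl/fl minus SE-Cre. For 6 of 59 members this passed (10.2%, against 17.6% of all probes). All 6 were negative, and 8.63% of all probes passed with a negative difference. The 6 are Rpl3l (-2.91, SE 0.19, adjusted p = 1.72e-07), Rpl6, Rpl4 (-0.77), Rpl36a (-0.69), Rplp0 (-0.55) and Rpl13a (-0.54). All are large-subunit genes, and the share of large-subunit genes that passed was 16.7%, against 17.6% of all probes. No size is given for Rpl6, which was detected on no SE-Cre or HA-Sox4 array, and that of Rpl3l depends on the background in HA-Sox4 cells. Rpl6 passed the detection filter only through Sox4fl/fl and HA arrays, so its call here is not independent of that filter. The Rpl13a call ended without Sox4fl/fl replicate 2, SE-Cre replicate 1 or 2, HA replicate 1 or 3 or HA-Sox4 replicate 3 (adjusted p up to 0.0861). The Rplp0 call ended without Sox4fl/fl replicate 1, SE-Cre replicate 1, HA replicate 2 or 3 or HA-Sox4 replicate 2 or 3 (up to 0.0712). Rps15, lower with Sox4 in both experiments, did not pass (-0.10, SE 0.15, adjusted p = 0.708). The signs of the loss and gain differences were opposite for 39 of the 59 members (66.1%), as they were for 59.4% of all probes. Across the 59 genes, which are not independent of each other, Pearson's r of the loss and gain differences was 0.27 and Spearman's rho -0.36, and without Rpl3l r was -0.21.

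None of the other members picked for their paralogs or special roles passed, but 4 of them were called lower in HA-Sox4 cells under some alternatives: Rps6 under 7, Rpl22l1 under 6, Rpl36al under 4 and Rpl7l1 under 2. Rpl22, which is needed for T cell development, and its paralog Rpl22l1 did not pass in either experiment, with differences of -0.11 and 0.23 on loss and 0.07 and -0.37 on gain. Rpl26, which binds the p53 mRNA, had -0.05 on loss and -0.20 on gain. Rps6, the substrate of S6 kinase, had -0.01 on loss and -0.27 on gain (adjusted p = 0.087). Rpl39, Rpl7l1 and Rps4x had 0.09, -0.34 and -0.01 on gain, and none passed. Rpsa, the laminin receptor precursor, had -0.48 on gain with an SE of 0.31 and detection on 1 of 3 HA-Sox4 and 2 of 3 HA arrays, so a change of this size was not detectable. Many members have processed pseudogenes of near-identical sequence, and the probe sequences were not used here, so a probe may read more than its own gene.

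The sign and size of the members' differences on gain varied with brightness. Of the 22 members with a mean log2 intensity under 13, none was called higher and 6 were called lower, and 21 had a negative difference (median -0.26). Of the 37 at 13 or more, 1 was called higher and 2 lower, and 19 were negative (median -0.01). The share called was 27.3% of the dimmer and 8.11% of the brighter members, near that of all probes, 28.1% under 13 and 11.5% at 13 or more. Of all 19393 probes under 13, 11016 had a negative difference (median -0.05), as had 145 of the 270 at 13 or more (median -0.03). On loss, 5 of the 22 dimmer members and 1 of the 37 brighter ones were called, with medians of 0.05 and -0.02, beside 19.6% and 3.7% of all probes. The members are near the top of the range of the arrays, with 41 of 59 among the brightest 1% of probes. The median raw intensity of the members was 7137 to 9003 on the loss arrays, whose highest probe read 16204 to 19461. On the gain arrays it was 19709.5 to 25480, with a highest probe of 29259 to 38192. The part of signal range in the result was not tested.

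The other probes of the same genes lay lower as well on gain. For 18 members, 26 further probes were kept, and 12 of these were called lower and 1 higher in HA-Sox4 cells (50%, against 27.9% of probes), with a median difference of -0.34. Probes of 8 of the 18 genes disagreed on whether they were called, and for 12 every other probe lay below the brightest, but no gene had probes called in opposite directions. Rpl38 had 14.34, 14.39 and 14.38 in HA-Sox4 cells, against 14.03, 14.13 and 14.11 in HA cells by its brightest probe (difference 0.28, adjusted p = 0.0505). Its other probe had 9.13, 9.16 and 9.18 in HA-Sox4 cells, against 10.17, 10.12 and 10.26 in HA cells (difference -1.03, adjusted p = 2.82e-05). For Rpl38 the pair of probes thus gave opposite signs, each with groups apart. The gain differences of the 2 probes of Rpl29 were -0.21 and -0.78. On loss, 2 of the 26 further probes were called higher and 2 lower (15.4%, against 19.3% of probes). Higher in SE-Cre cells were the second probes of Rpl29 (0.66) and Rpl38 (0.52), and lower were a further probe of Rpl21 (-0.79) and of Rpl27a (-0.46). By their brightest probes these 4 genes were not called on loss. Across the 85 kept probes, r between mean log2 intensity and the gain difference was 0.61 and rho 0.72, as a description, since probes share genes and arrays; on loss they were 0.25 and -0.01.

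**Figure D3:**
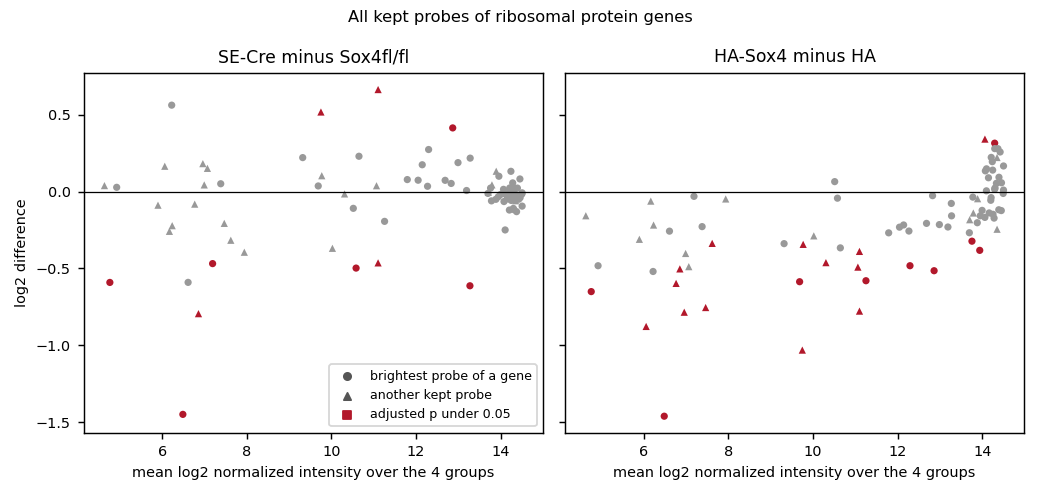
Log2 difference (y axis) against mean log2 normalized intensity over the 4 groups (x axis) for the 85 kept probes of ribosomal protein genes, in SE-Cre minus Sox4fl/fl (left) and HA-Sox4 minus HA (right); circles are the brightest probe of a gene, triangles its other kept probes, and red marks an adjusted p under 0.05. On the right most probes under 13 lie below 0 and those above 14 lie on both sides.

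Many genes that build ribosomes were lower in HA-Sox4 cells. Of 35 kept ribosome biogenesis genes, 17 were lower in HA-Sox4 cells and none higher (48.6%, median -0.43), against 14.3% of probes lower. They include Ncl, which encodes nucleolin (-0.84, adjusted p = 0.000137), the ribosomal RNA methyltransferase gene Nop2 (-0.82), Lyar (-0.74) and Rrp12 (-0.70). On loss, 2 of the 35 were higher and none lower, against 9.15% of probes higher: Mrto4, a factor of stalk assembly (0.61), and Nop2 (0.41). Of 10 genes on the RNA polymerase I list, 5 were lower in HA-Sox4 cells, with Polr1b at -1.18, Polr1d at -0.68 and Polr1a at -0.44. The list and its 5 also hold Znrd2 (-0.50), which does not encode a subunit of that enzyme. In SE-Cre cells 1 gene of the list was higher (Polr1d, 0.48). The difference between these lists and the members was not tested.

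The mitochondrial ribosome, encoded by a separate set of nuclear genes, is the nearest like group. Of its 72 kept genes, 21 were lower and 1 higher in HA-Sox4 cells (30.6%, against 27.9% of probes, median -0.25). In SE-Cre cells 5 were higher and 1 lower (8.33%, against 19.3% of probes, median 0.11). Mrpl52 was at -1.16 on gain and 0.93 on loss, Mrpl24 at -0.86 on gain and Mrps25 at 0.84 on loss. Of 21 translation initiation factor genes, 3 were lower (Eif4e -0.59, Eif3b -0.56 and Eif3f -0.30) and 1 was higher (Eif2s2, 0.43) in HA-Sox4 cells. On loss 1 was lower (Eif2s2, -0.55) and 1 higher (Eif5a, 0.35). The shares called were 19% on gain and 9.52% on loss, both under those of all probes. Of 13 further genes with TOP mRNAs, 1 was higher on gain (Hnrnpa1, 0.34) and 1 lower on loss (Vim, -1.12), a share of 7.69% each time and again under that of all probes.

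**Figure D4:**
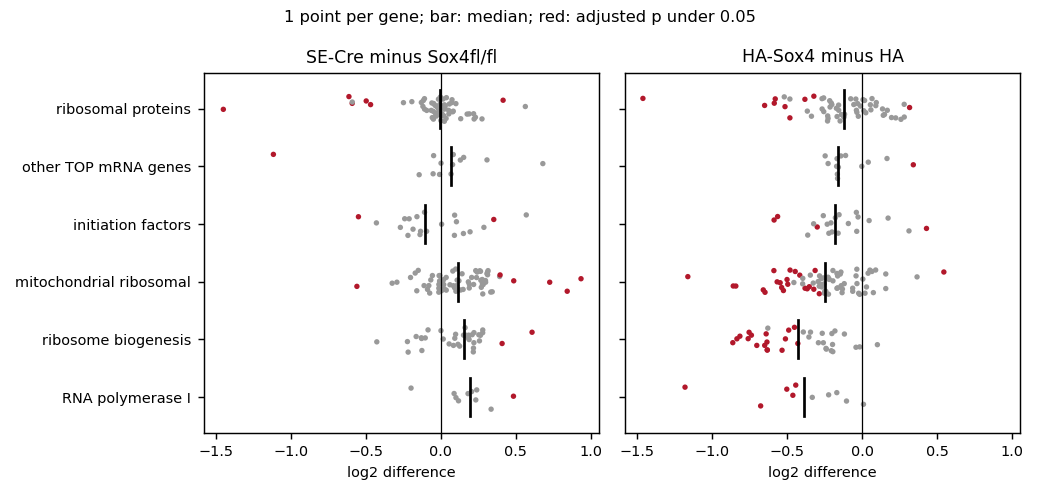
Log2 difference (x axis) of each gene of 6 lists (rows) in SE-Cre minus Sox4fl/fl (left) and HA-Sox4 minus HA (right); each point is a gene, the bar is the median of the list and red marks an adjusted p under 0.05. On the right the medians run from -0.12 for the ribosomal protein genes to -0.43 for ribosome biogenesis.

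Regulators of these genes moved in both directions. Of 17 genes of mTOR signalling and the Myc network, 4 were higher and 3 lower in HA-Sox4 cells, and 2 were higher and 3 lower in SE-Cre cells (41.2% and 29.4%, against 27.9% and 19.3% of probes). Mtor was higher in SE-Cre cells by 1.07 and in HA-Sox4 cells by 0.99. Myc, which drives transcription of ribosome genes, was lower in HA-Sox4 cells (-0.66), as were Larp1, which binds TOP mRNAs (-0.75), and Mxd4, a Myc antagonist (-1.02). On loss, Rptor (-0.52), Eif4ebp1 (-0.75) and Tsc2 (-0.41) were lower. Of 7 genes of the p53 and Mdm2 axis, 3 were lower in HA-Sox4 cells (42.9%, against 27.9% of probes), Phlda3 (-0.82), Cdkn1a (-0.64) and Ccng1 (-0.57). In SE-Cre cells 1 was lower (14.3%, against 19.3% of probes), Bbc3 (-0.49). Whether these lists differ from other genes was not tested.

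HA cells were also set against SE-Cre cells. Both carry the floxed allele and SE-Cre, and they differ by immortalization and by experiment, which cannot be told apart. The comparison shares arrays with both others, so its values are given only side by side with them. Of the 59 members, 20 were higher and 10 lower in HA cells (50.8%, against 54.8% of probes, 26.3% higher and 28.5% lower), with a median of 0.04. Of these, 12 differed by at least 1.5-fold, beside 38.2% of probes. When arrays were scaled to a common median in place of quantiles, 57 were higher and none lower with a median of 0.81, as the median of all probes moved to 0.51 from -0.04. Directions here are therefore relative to the scaling. The genes named next were chosen after their values were seen, except Rpl22l1. That gene had 12.39, 12.30 and 12.13 in HA cells, against 9.40, 9.15 and 9.42 in SE-Cre cells (difference 2.95, SE 0.15, adjusted p = 6.4e-09), while Rpl22 had -0.05 (interval -0.29 to 0.20). Rps20 was higher by 2.49, Rpl14 by 2.45, Rps3a1 by 1.31 and Rpl7a by 1.14, and Rpl41 was lower by the most (-0.44). Rps20 and Rpl14 were each detected on 2 of 3 SE-Cre arrays, so their sizes depend on the background.

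The labels were checked against Sox4 itself and against cell type markers. The kept Sox4 probe had 4.98, 5.06 and 4.44 in SE-Cre cells, against 11.43, 11.32 and 11.36 in Sox4fl/fl cells. It had 5.55, 4.87 and 5.01 in HA-Sox4 cells, detected on all 3 arrays, against 4.39, 4.76 and 4.37 in HA cells, detected on none, and the labels do not say which part of the transcript the HA-Sox4 copy holds. All 8 measured progenitor B cell markers were detected on all 3 arrays of SE-Cre, HA-Sox4 and HA cells, and 7 in Sox4fl/fl cells, where Pax5 was not detected. Their levels were not alike between groups. In each experiment 1 of the 8 was called higher and 2 lower (37.5%, against 19.3% of probes on loss and 27.9% on gain). The largest differences were -3.56 on loss and 4.20 on gain. None of 5 hepatocyte, 4 erythroid or 4 T cell markers was detected on all 3 arrays of any group. Of 6 myeloid markers only Lyz2 was, with summed intensities of the 6 of 328 to 452 in SE-Cre against 183 to 228 in Sox4fl/fl cells and 154 to 185 in HA-Sox4 against 392 to 448 in HA cells. The part of myeloid RNA in the members' differences was not tested, and in bulk RNA a shift in cell types and a change per cell cannot be told apart.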

How the data were processed

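Total RNA of 12 samples was hybridised to Illumina bead arrays with 45281 probes. The authors deposited non-normalized intensities, linear by their values, with a detection p-value per probe and array, per the file headers, and processed intensities, used as an alternative. R 3.0.1 is named in the submitters' processing notes. No label or header names the scanner or how beads were summarized. Intensities were background-corrected with normexp, quantile-normalized over the 12 arrays and taken to log2 (neqc in limma 3.58.1, R 4.3.3, offset 16, with negative controls estimated from detection p-values). Probes detected on at least 3 arrays, 19663, entered 1 fit of 4 group means, with adjustment by Benjamini-Hochberg and a threshold of 0.05. Of all probes, 34885 had 1 gene symbol, 18 several and 10378 none. The number of arrays limits the precision. The procedure was also run on simulated data. Noise there was drawn independently for each probe and array, so the run does not cover effects shared across an array. Members and gene lists were chosen with earlier results of these data known. Genes are named where they passed the threshold with no overlap between groups, by a fixed list of paralogs and special roles, or, in other lists, as up to 4 with the smallest p in each experiment. Replicates of the same number did not deviate together (correlations from -0.023 to 0.0329), so samples were not paired in the main fit. The labels do not say what a replicate number marks. Raw medians were 83.4 to 90.2 on the loss arrays and 114.5 to 139.2 on the gain arrays, and 36.13% to 40.01% of probes were detected.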

Additional observations from a re-analysis of the deposited data

Results flagged for a closer look

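For 6 ribosomal protein genes the difference between cells labelled as having and as lacking Sox4 was unlike in the 2 experiments, by the test of the difference itself (HA-Sox4 minus HA, less Sox4fl/fl minus SE-Cre, in the limma fit of all 12 arrays). The difference was -2.91 for Rpl3l (adjusted p = 1.72e-07), -1.24 for Rpl6 (0.00268), -0.77 for Rpl4 (0.00155), -0.69 for Rpl36a (0.0173), -0.55 for Rplp0 (0.0274) and -0.54 for Rpl13a (0.0306). The value of Rpl6 is a fitted one and no measured size, since it was detected on no SE-Cre or HA-Sox4 array. Rpl6 passed the detection filter only through Sox4fl/fl and HA arrays, so its call is not independent of that filter. Rpl3l was detected on 1 of 3 HA-Sox4 arrays. Rpl3l and Rpl6 were lower in HA-Sox4 cells, against HA cells, and lower in SE-Cre cells, against Sox4fl/fl cells. Rpl4 and Rplp0 were lower in HA-Sox4 cells and not called on loss, while Rpl36a and Rpl13a were lower in SE-Cre cells and not called on gain. The Rplp0 and Rpl13a calls each ended under 9 alternatives, 6 of them the loss of a single array.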

How the results depend on the processing

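In all, 25 alternatives were run, 1 of them (the dimmest kept probe of a gene) chosen after seeing the data. No called difference of a named gene turned sign, and of 1716 recomputed values 62 lost and 34 gained a call, the cause of which was not tested. The count of called members on gain, 9, became 17 without background correction (5 higher, 12 lower; 28.8%, against 31% of probes), 24 with the authors' processed values (40.7%, against 41.6%), 14 with each experiment fitted on its own (23.7%, against 37.1%), 19 with a trended robust variance (32.2%, against 30.5%), 19 with array weights (32.2%, against 39.7%), 17 with the mean over a gene's probes (28.8%, against 34.4% of genes), 14 with the dimmest probe (23.7%, against 27.9%) and 3 when at least 1.5-fold was required. Leaving out 1 array gave 5 to 10 on gain (5 without HA-Sox4 replicate 2), 5 to 7 on loss, 4 to 8 between experiments and 26 to 30 for HA minus SE-Cre. The count on loss, 6, became 3, all lower, with each experiment fitted (5.08%, against 10.2% of probes), or normalized and fitted (5.26%, against 15.3%), on its own, and 3 with at least 1.5-fold. Between experiments it became 11 with the mean over a gene's probes (18.6%, against 23.1% of genes). For HA minus SE-Cre it became 57 with scaling to a common median (96.6%, against 64.2%) and 12 with at least 1.5-fold. The median on gain was -0.172 with the mean over probes or the dimmest probe, and that of HA minus SE-Cre was 0.812 with scaling to a common median, 0.131 with the mean over probes and 0.0956 with the dimmest probe. With the replicate number as a block 5, 7 and 4 members were called on loss, on gain and between experiments; for HA minus SE-Cre the block could not be fitted, since each number lies within 1 experiment. Rpl3l stayed called in both experiments under every alternative run in which it was tested, and Rpl36a on loss likewise. Probes near background, such as those of Rpl6, Rpsa and Rpl14, have the least certain differences.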
